A study of Sus scrofa with 9 samples.

Results

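The Tudor domain proteins of the germ line are a family of scaffolds and enzymes that gather in the granules of developing sperm cells. A list of 10 genes was taken by symbol, and 8 of them were found among the 22342 pig genes of the deposited tables: TDRD1, TDRD3, TDRD5, TDRD6, TDRD9, TDRD12, TDRKH and RNF17. TDRD7 and STK31 had no matching identifier and are not analysed here. RNA was sequenced from pig testis cells labelled spermatogonia (the mitotic founders of the germ line, replicates 1, 2 and 3), spermatocytes (the cells in meiosis, replicates 2, 3 and 4) and round spermatids (the haploid cells that meiosis leaves, replicates 1, 2 and 3). The labels name the tissue and the cell type and give no breed, age, genotype or treatment, and they do not say how the cells were purified or whether the 3 libraries of a stage came from different animals. The study set out to follow transcription together with genome folding as sperm form, and each comparison asks how far a gene's level differed between 2 of these stages.

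A Tudor domain is a small fold that binds methylated arginine or lysine. In germ cells the PIWI proteins, which carry the small piRNAs that silence transposons, have methylated arginines at their ends, and Tudor proteins bind these marks and hold PIWI proteins in granules beside mitochondria and, in haploid cells, in the chromatoid body. Protein arginine methyltransferases such as PRMT5 make the marks. Most roles given below come from the mouse.

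Library totals ran from 47963279 to 64639201 estimated counts, and all 8 genes passed the filter on low counts in a table of 16802 genes tested. The lowest value of a member was 133 estimated counts, for TDRD12 in round spermatids 1. The stage labels were checked against markers, and the libraries held transcripts of other cells and stages too. The columns taken as spermatogonia share their numbers with the sample titles but not their name, and another set of columns, headed by a different surface antigen and not used here, shares 1 of those numbers. Each comparison with spermatogonia rests on this match. UCHL1, a marker of spermatogonia, was highest in spermatogonia, SYCP1, of the synaptonemal complex, in spermatocytes, and PRM1, a protamine, in round spermatids. KIT, the receptor that heads the columns taken as spermatogonia, stood at 6.36 ± 0.165 CPM in spermatogonia, 7.47 ± 0.747 in spermatocytes and 24.6 ± 1.54 in round spermatids, and was named after its value was seen. Of 11 spermatogonia markers tested, 9 fell in spermatocytes against spermatogonia, beside 44.0% of all genes tested. Against spermatogonia, 4 rose in round spermatids (GFRA1, ID4, KIT and ITGA6) and 5 fell, beside 39.5% and 39.7% of all genes. The sum over 13 spermatogonia markers was 127 to 132 CPM (estimated counts scaled to library size) in spermatogonia, 40.8 to 51.9 in spermatocytes and 162 to 217 in round spermatids, highest in the last. ID4 alone averaged 105 CPM in round spermatids, against 1.03 CPM in spermatogonia, and the place of round spermatids above spermatogonia in this sum rests on it. Of 11 spermatocyte markers tested, 7 rose in spermatocytes against spermatogonia (29.3% of all genes), 2 fell (SPO11 and DMC1, beside 44.0%) and 2 were not called. Their sum was already 1833 to 1902 CPM in spermatogonia, beside 3720 to 4392 in spermatocytes and 707 to 736 in round spermatids. Summed over 11 spermatid markers, levels were 2333 to 2389 CPM in spermatogonia, 551 to 1773 in spermatocytes and 5481 to 7790 in round spermatids. Summed over 8 markers of myoid cells, they were 21.8 to 23.4, 8.67 to 21.0 and 4868 to 5946 CPM, over 12 Sertoli cell markers 255 to 263, 38.6 to 57.3 and 1070 to 1168 CPM, and over 7 Leydig cell markers 307 to 326, 6.50 to 8.37 and 48.6 to 53.4 CPM. The Sertoli cell gene AMH and the stem cell gene NANOS2 were at 0 in all spermatocyte libraries. Both were also low elsewhere, with stage means of at most 1.09 and 0.123 CPM. Other genes of the same lists were present in spermatocytes, such as GATA4 (29.8 CPM) and DMRT1 (28.2 CPM). The spermatogonia libraries were close to each other, with a median chi-square per gene of 0.801 to 0.861 between pairs against 0.455 from counting alone, while pairs with round spermatids replicate 2 gave 20.5 to 21.98. Because the RNA of each cell fraction was measured in bulk, fewer cells of a type and less RNA per cell cannot be told apart.

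Tudor domain transcripts were lower in round spermatids than in spermatocytes for every member found. Of the 8 genes, 6 rose in spermatocytes against spermatogonia, all 8 fell in round spermatids against spermatocytes, and 7 fell in round spermatids against spermatogonia. Among all genes tested, 29.3% were called higher and 44.0% lower in the first comparison, 36.4% lower and 42.7% higher in the second, and 39.7% lower and 39.5% higher in the third. By library, in CPM, 7 members had every spermatocyte value above every spermatogonia value (31.9% of all genes) and 1, TDRD9, had every value below (48.1%). All 8 had every round spermatid value below every spermatocyte value, as did 36.1% of all genes, while 42.1% lay above. Set against spermatogonia, 7 members had every round spermatid value below, as did 43.5% of all genes, while 41.7% lay above. In TPM, which is also scaled to transcript length, TDRD5, TDRD6 and RNF17 overlapped between spermatocytes and spermatogonia. On that scale TDRD12 was lower in every spermatocyte library than in spermatogonia (21.0 to 26.0 against 26.6 to 29.6 TPM). TDRD3 was also lower in every round spermatid library than in spermatogonia (37.6 to 46.3 against 62.7 to 67.2 TPM). The 6 genes called both higher in spermatocytes than spermatogonia and lower in round spermatids than spermatocytes were TDRD1, TDRD3, TDRD5, TDRD6, TDRKH and RNF17, a pair of calls shared by 19.5% of genes. These comparisons share their libraries and are set side by side. Calls are edgeR quasi-likelihood tests fitted over all 9 libraries, with Benjamini-Hochberg adjusted p below 0.05. Since the labels name no animals, the p-values speak only of variation among the libraries sequenced, some of which may be technical.

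**Figure D1:**
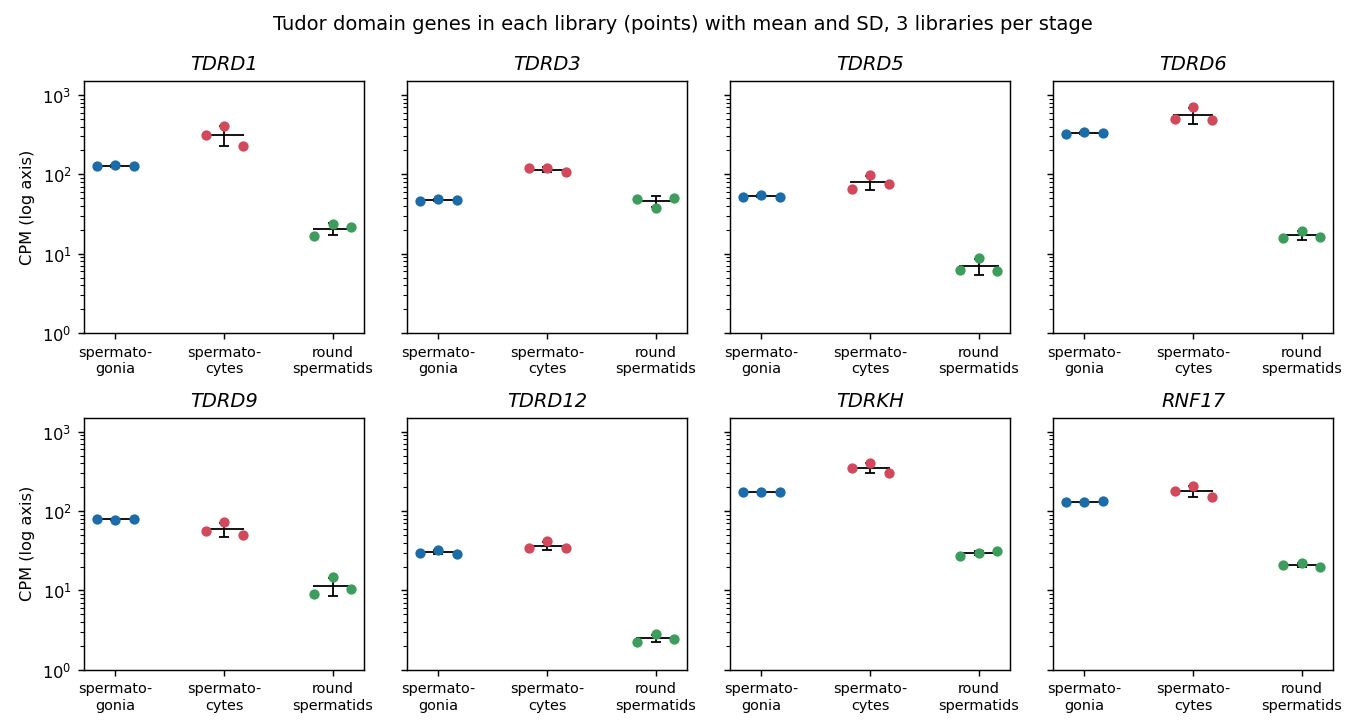
Level of each of the 8 Tudor domain genes in CPM on a log axis, with 1 point per library and the mean ± SD of 3 libraries per stage. Every round spermatid library lay below every spermatocyte library for all 8 genes, while TDRD3 in round spermatids overlapped its range in spermatogonia.

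TDRD1 has several Tudor domains in a row and, in the mouse, binds the PIWI protein MILI in the granules between mitochondria. It stood at 126, 133 and 127 CPM in spermatogonia, 317, 404 and 230 CPM in spermatocytes, and 16.6, 23.5 and 21.6 CPM in round spermatids. The 3 stages did not overlap, with spermatocytes highest and round spermatids lowest. It was 2.46-fold higher in spermatocytes than in spermatogonia (log2 fold change 1.30 ± 0.195 SE, edgeR adjusted p = 0.000165). Round spermatids held 15.4-fold less than spermatocytes (-3.94 ± 0.217, edgeR adjusted p = 5.89e-08) and 6.26-fold less than spermatogonia (-2.65 ± 0.205, edgeR adjusted p = 8.93e-07). The gene spans bases 124526013 to 124575166 of chromosome 14 of Sscrofa11.1 and has the identifier ENSSSCG00000021075.

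TDRKH, also called TDRD2, joins KH domains, which bind RNA, to 1 Tudor domain, sits on the mitochondrial surface and in the mouse takes part in trimming the ends of piRNAs. It stood at 174, 174 and 174 CPM in spermatogonia, 354, 400 and 306 CPM in spermatocytes, and 27.5, 29.8 and 31.1 CPM in round spermatids. No stages overlapped. The level in spermatocytes was 2.03-fold that in spermatogonia (log2 fold change 1.02 ± 0.115 SE, edgeR adjusted p = 2.29e-05). That call was lost on log2(TPM + 0.1) (limma adjusted p = 0.0521). In round spermatids it was 12.0-fold lower than in spermatocytes (-3.58 ± 0.126, edgeR adjusted p = 4.04e-09) and 5.90-fold lower than in spermatogonia (-2.56 ± 0.121, edgeR adjusted p = 3.89e-08). TDRKH lies on chromosome 4 from 97415891 to 97438262 (ENSSSCG00000027770).

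Of the 8 genes, TDRD6 fell most in both comparisons of round spermatids. It is a large protein of many Tudor domains that the mouse needs to build the chromatoid body. It stood at 325, 344 and 330 CPM in spermatogonia, 491, 701 and 485 CPM in spermatocytes, and 15.7, 19.6 and 16.2 CPM in round spermatids. Stages did not overlap. TDRD6 was the most abundant of the 8 genes in CPM, a scale that also grows with transcript length, in spermatogonia and spermatocytes. It was 1.68-fold higher in spermatocytes than in spermatogonia (log2 fold change 0.75 ± 0.154 SE, edgeR adjusted p = 0.00133). With the closely similar spermatogonia libraries summed to 1, the log2 fold change of TDRD6 was 0.68 and no longer called (edgeR adjusted p = 0.0641). It was 0.32 without normalization factors (edgeR adjusted p = 0.109) and 0.20 on log2(TPM + 1) (limma adjusted p = 0.465). In round spermatids TDRD6 was 32.6-fold lower than in spermatocytes (-5.03 ± 0.182, edgeR adjusted p = 4.68e-09). It was also 19.4-fold lower than in spermatogonia (-4.28 ± 0.176, edgeR adjusted p = 1.78e-08). TDRD6 lies on chromosome 7 from 41468589 to 41485146 (ENSSSCG00000021218).

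TDRD5, which the mouse also needs for chromatoid bodies and for silencing of retrotransposons, was less abundant and rose less. It stood at 52.1, 54.5 and 51.5 CPM in spermatogonia, 65.01, 96.8 and 75.7 CPM in spermatocytes, and 6.16, 8.70 and 5.998 CPM in round spermatids. All 3 spermatocyte libraries were above all spermatogonia libraries, the nearest by a small margin. The log2 fold change in spermatocytes against spermatogonia was 0.59 ± 0.175 SE (edgeR adjusted p = 0.0114). It lost its call with the replicate number as a block (0.57, edgeR adjusted p = 0.0611) and with spermatogonia libraries summed (0.52, edgeR adjusted p = 0.177). The log2 fold change of TDRD5 was 0.16 without normalization factors (edgeR adjusted p = 0.502) and 0.043 on log2(TPM + 1) (limma adjusted p = 0.892). In round spermatids TDRD5 was 11.4-fold lower than in spermatocytes (-3.51 ± 0.194, edgeR adjusted p = 6.17e-08) and 7.57-fold lower than in spermatogonia (-2.92 ± 0.190, edgeR adjusted p = 2.68e-07). TDRD5 lies on chromosome 9 from 121245080 to 121337339 (ENSSSCG00000015527).

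RNF17 carries a RING finger, a zinc-binding fold of many ubiquitin ligases, before its Tudor domains, and male mice without it make no mature sperm. It stood at 131, 131 and 132 CPM in spermatogonia, 179, 209 and 150 CPM in spermatocytes, and 20.9, 22.2 and 19.6 CPM in round spermatids. The stages were ordered like those of TDRD5, with no overlap. RNF17 was 1.36-fold higher in spermatocytes than in spermatogonia (log2 fold change 0.45 ± 0.125 SE, edgeR adjusted p = 0.00812), a call lost with spermatogonia libraries summed (0.38, edgeR adjusted p = 0.194) and without normalization factors (0.018, edgeR adjusted p = 0.909). On log2(TPM + 1) the difference of RNF17 was -0.089 (limma adjusted p = 0.726). Round spermatids held 8.57-fold less than spermatocytes (-3.10 ± 0.135, edgeR adjusted p = 1.42e-08) and 6.29-fold less than spermatogonia (-2.65 ± 0.133, edgeR adjusted p = 5.50e-08). The gene spans bases 154457 to 281039 of chromosome 11 (ENSSSCG00000009572).

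Both members that join an RNA helicase domain to a Tudor domain, TDRD9 and TDRD12, missed the call between spermatocytes and spermatogonia. TDRD9, which in the mouse works with the PIWI protein MIWI2 in silencing transposons, stood at 78.8, 77.9 and 79.6 CPM in spermatogonia and 56.0 CPM in spermatocytes 2, 72.1 in spermatocytes 3 and 49.3 in spermatocytes 4. Every spermatocyte library was below every spermatogonia library, against the direction of the other 7 genes, and the log2 fold change was -0.41 ± 0.187 SE (edgeR adjusted p = 0.0678). The difference was called with limma-voom (-0.43, adjusted p = 0.0333), without spermatocytes replicate 3 (-0.58, edgeR adjusted p = 0.0201) and without round spermatids replicate 2 (-0.41, edgeR adjusted p = 0.0195). Round spermatids held 9.05, 14.7 and 10.4 CPM, 5.19-fold less than spermatocytes (-2.38 ± 0.198, edgeR adjusted p = 1.14e-06) and 6.91-fold less than spermatogonia (-2.79 ± 0.201, edgeR adjusted p = 5.27e-07). TDRD9 (ENSSSCG00000002552) lies on a sequence of Sscrofa11.1 with no chromosome assigned, from 2394039 to 2479280.

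TDRD12, which in the mouse is needed for piRNAs bound by MIWI2, was the least abundant member in CPM. It stood at 30.0, 32.2 and 28.8 CPM in spermatogonia, 34.3, 41.8 and 34.2 CPM in spermatocytes, and 2.25, 2.80 and 2.42 CPM in round spermatids. Spermatocyte libraries were all above spermatogonia libraries, yet the log2 fold change of 0.28 ± 0.127 SE was not called (edgeR adjusted p = 0.0707). It was called with DESeq2 (0.46, adjusted p = 0.00556) and turned to -0.15 without normalization factors (edgeR adjusted p = 0.403). In round spermatids TDRD12 was 14.8-fold lower than in spermatocytes (-3.88 ± 0.146, edgeR adjusted p = 5.89e-09) and 12.2-fold lower than in spermatogonia (-3.61 ± 0.144, edgeR adjusted p = 1.68e-08). The gene spans bases 42589557 to 42667946 of chromosome 6 (ENSSSCG00000002857).

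TDRD3 followed another course. It is found in many tissues, reads asymmetrically methylated arginines on histones and RNA polymerase II, and works with the topoisomerase TOP3B and the fragile X protein FMR1 rather than with piRNAs. It stood at 46.4, 49.1 and 46.9 CPM in spermatogonia, 120, 119 and 106 CPM in spermatocytes, and 49.1, 37.2 and 51.0 CPM in round spermatids. Levels in round spermatids lay on either side of those in spermatogonia. TDRD3 was 2.42-fold higher in spermatocytes than in spermatogonia (log2 fold change 1.28 ± 0.131 SE, edgeR adjusted p = 1.24e-05) and 2.51-fold lower in round spermatids than in spermatocytes (-1.33 ± 0.131, edgeR adjusted p = 4.15e-06). Between round spermatids and spermatogonia the log2 fold change was -0.05 ± 0.129 SE (edgeR adjusted p = 0.719), which was -0.67 and called on log2(TPM + 1) with limma (adjusted p = 0.00115). TDRD3 lies on chromosome 11 from 33257556 to 33440131 (ENSSSCG00000009449).

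**Figure D2:**
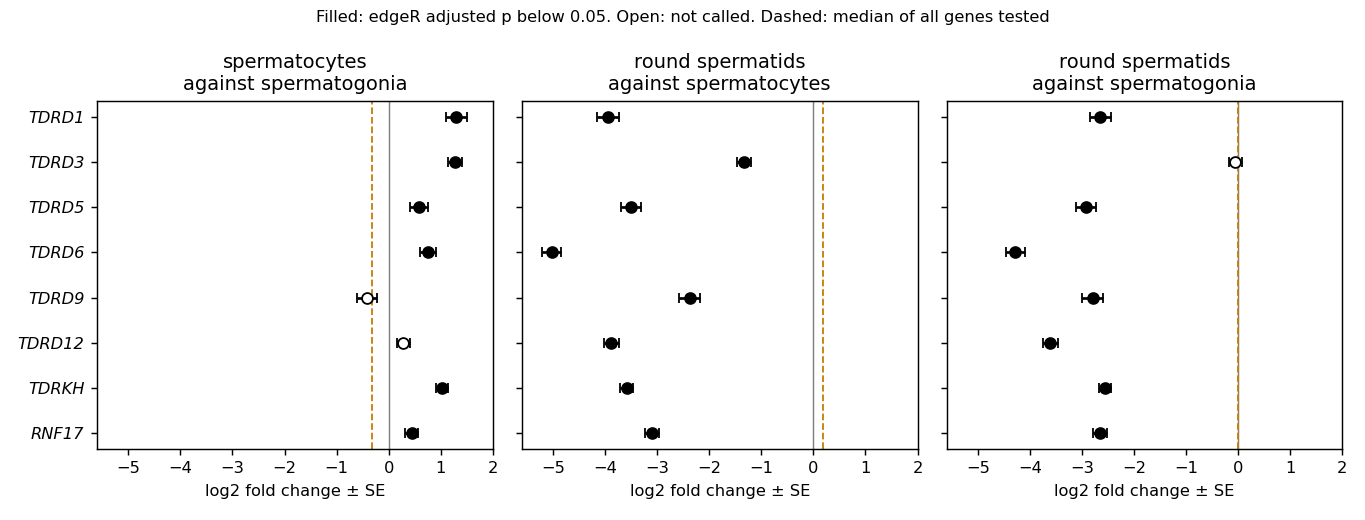
Log2 fold change ± SE of each Tudor domain gene in the 3 comparisons, with called genes filled and the median of all 16802 genes dashed. The members spread from -0.41 to 1.30 in spermatocytes against spermatogonia, and TDRD3 stood to the right of the other 7 in both comparisons of round spermatids.

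The members' median log2 fold change was 0.67 in spermatocytes against spermatogonia, beside -0.32 for all genes tested. It was -3.55 in round spermatids against spermatocytes, beside 0.19 for all genes, and -2.72 in round spermatids against spermatogonia, beside 0.00294. These medians moved with the scaling. Without normalization factors the median of all genes fell to -0.74 in spermatocytes against spermatogonia and that of the members was 0.24, with 3 members called higher and 1 lower. On log2(TPM + 1) they were -0.55 and 0.12, again with 3 members higher and 1, TDRD9, lower. In round spermatids against spermatocytes the medians of all genes and of the members were 0.64 and -3.07 without normalization factors. In round spermatids against spermatogonia they were -0.62 and -3.13 on log2(TPM + 1). Among the genes called, 39.98% were higher in spermatocytes than in spermatogonia, against 26.83% without normalization factors and 24.66% on log2(TPM + 1). In round spermatids against spermatocytes that share was 53.96%, and 65.66% without normalization factors. Set against the median of all genes, TDRD9 (-0.41) lay close to it and the other 7 above it in spermatocytes against spermatogonia.

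Per transcript length, the order of the members differed between stages. In TPM, the deposited length-scaled unit, TDRKH led in spermatogonia at 188 ± 1.74 TPM and in spermatocytes at 264 ± 25.1 TPM (SD, n = 3). In spermatogonia it was followed by TDRD6 (123 ± 4.39 TPM), TDRD1 (106 ± 3.31), RNF17 (78.9 ± 0.776), TDRD3 (64.8 ± 2.28), TDRD9 (35.3 ± 0.462), TDRD5 (34.3 ± 1.14) and TDRD12 (27.8 ± 1.60), and only TDRD9 and TDRD5 overlapped as neighbours. In spermatocytes TDRD1 was next at 180 ± 42.5 TPM and overlapped TDRD6 at 143 ± 28.5 TPM. TDRD3 (109 ± 1.37 TPM), RNF17 (74.5 ± 9.45) and TDRD5 (35.9 ± 7.24) followed, and TDRD12 (23.4 ± 2.46) overlapped TDRD9 (18.3 ± 3.07) at the low end. In round spermatids TDRD3 led at 40.7 ± 4.92 TPM, above TDRKH at 21.4 ± 6.87 TPM with no overlap. All lower neighbours there, from TDRKH through TDRD1 (11.6 ± 5.25 TPM), RNF17 (8.54 ± 3.13), TDRD6 (4.38 ± 1.92), TDRD9 (3.61 ± 2.08) and TDRD5 (3.19 ± 1.72) to TDRD12 (1.57 ± 0.669), overlapped. For each of the 8 genes replicate 2 was the highest of the round spermatid libraries on this scale.

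Among genes tested, TDRKH exceeded 93.5% by mean TPM in spermatogonia, 95.9% in spermatocytes and 73.1% in round spermatids. TDRD6 exceeded 89.9%, 92.5% and 42.9%, and TDRD12 exceeded 70.8%, 72.6% and 26.6%. TDRD3 kept a high place throughout, above 82.6%, 90.3% and 83.6% of genes.

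The summed TPM of the 8 genes was 644, 672 and 656 in spermatogonia, 799, 978 and 768 in spermatocytes, and 77.8, 125 and 81.7 in round spermatids. TDRD3 made up 9.74, 9.9998 and 9.81% of that sum in spermatogonia, 13.7, 11.2 and 14.0% in spermatocytes, and 48.3, 36.9 and 46.6% in round spermatids. TDRD6 went the other way, with 18.5, 19.0 and 18.7%, then 15.2, 18.0 and 17.3%, then 4.19, 5.25 and 4.01%. TDRD9 made up 2.10, 2.24 and 2.13% in spermatocytes, against 5.43, 5.21 and 5.46% in spermatogonia. These shares, which no library scaling changes, were looked at after the levels were seen and are given as description.

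**Figure D3:**
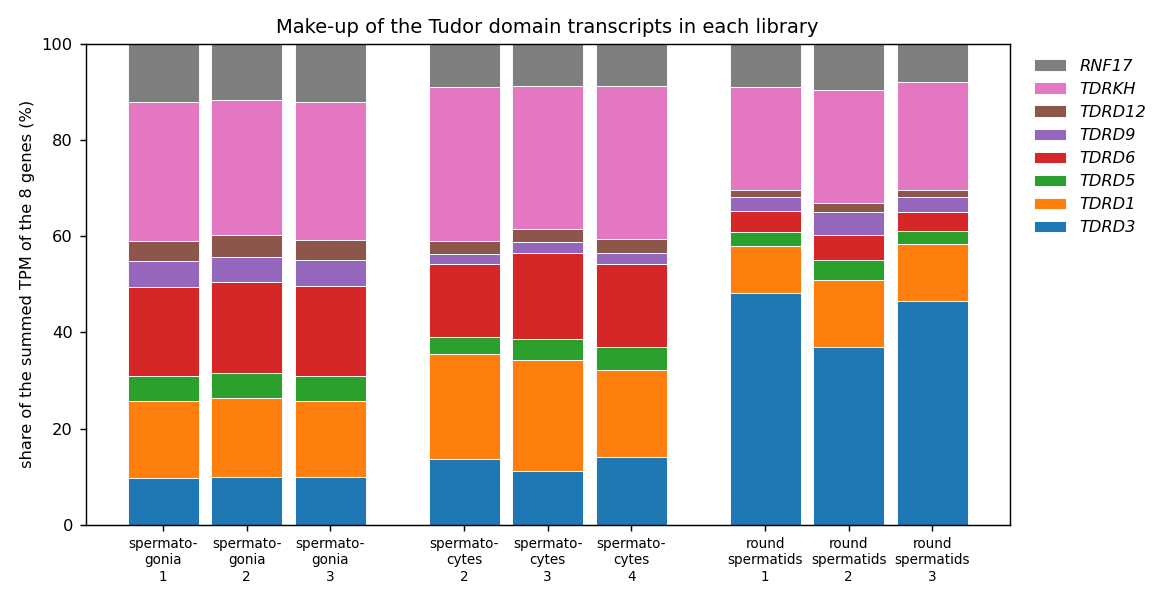
Share of each Tudor domain gene in the summed TPM of the 8 genes, in percent, with 1 bar per library. TDRD3, at the foot of each bar, made up 36.9 to 48.3% in round spermatids and 9.74 to 14.0% in the other libraries.

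The pattern within the family can also be read from log2 ratios of estimated counts inside each library. Relative to the geometric mean of the 8 genes, TDRD3 was 0.63 higher on the log2 scale in spermatocytes than in spermatogonia and 2.64 higher in round spermatids than in spermatogonia, with no overlap in either case. TDRD9 was 1.07 lower on that scale in spermatocytes than in spermatogonia (-1.32 ± 0.0510 against -0.25 ± 0.0423, SD, n = 3 each), and TDRD12 was 0.37 lower, while TDRD1 was 0.62 and TDRKH 0.37 higher, all without overlap. With 3 libraries against 3, an exact permutation test cannot go below p = 0.1. Relative to DDX4, the helicase of the same granules known as VASA, 7 members were lower in every round spermatid library than in every spermatogonia library, by 1.60 to 3.32 on the log2 scale, and TDRD3 was 0.90 higher. On this ratio 7 members, all but TDRD1, were also lower in every spermatocyte library than in every spermatogonia library, by 0.15 to 1.86, while DDX4 itself rose 2.69-fold there. Between round spermatids and spermatocytes the ratio of TDRD9 to DDX4 overlapped, at -4.19 ± 0.525 against -4.20 ± 0.178.

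Over the 9 libraries, the 21 pairs of members without TDRD3 had Pearson correlations of log2(CPM + 0.5) from 0.892 to 0.999, and the 7 pairs with TDRD3 had 0.378 to 0.753. All points share the split into stages and the same libraries, so these values describe that split. TDRD6 and RNF17 were the most alike pair (0.999). Searched over 7774 genes with a symbol and at least 10 CPM on average, the gene most like TDRD12 was MAEL, of the piRNA pathway (0.9996), before SUGP2 (0.999), and that most like TDRD6 was LMTK2 (0.9998). Such a correlation leaves out the size of the changes. In round spermatids against spermatocytes MAEL fell 2.37-fold and TDRD12 14.8-fold. The nearest to TDRD5 were SFMBT1 and BOLL (0.9995 and 0.999), to TDRKH PBK and DCAF8 (0.999 each), and to TDRD1 GPAT3 and PPP2R5C (0.999 and 0.998). TDRD3 was nearest to EPS15 and OSBPL9 (0.999 and 0.998), TDRD9 to LDAF1 and UPF1 (0.999 each), and RNF17 to LMTK2 and KIF2C (0.999 each).

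Among the spermatocyte libraries, replicate 3 had the highest value of every member but TDRD3. That library also had the lowest sum of spermatid markers of all 9, at 551 CPM, while spermatocytes 2 and 4 had 1661 and 1773 CPM. The part of this difference in the members' spread was not tested. Without spermatocytes replicate 3, TDRD1 was 1.09 and TDRD6 0.56 higher on the log2 scale in spermatocytes than in spermatogonia, both still called (edgeR adjusted p = 0.000427 and 0.00242).

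The other genes of the piRNA pathway and its granules moved less evenly. Of 18 listed genes 14 were found and tested. PIWIL1, MOV10L1, GPAT2 and TEX15 were not matched, so the PIWI gene PIWIL1 could not be followed here. In spermatocytes against spermatogonia 6 rose, 4 fell and 4 did not pass, with a median of 0.16. Among all genes, 29.3% rose and 44.0% fell there. The fallers were both PIWI genes found and 2 factors beside them: PIWIL2 (19.5 ± 4.58 against 41.1 ± 0.972 CPM), PIWIL4 (0.574 ± 0.361 against 4.45 ± 0.249), the mitochondrial nuclease gene PLD6 (77.1 ± 16.5 against 166 ± 5.58) and SPOCD1, which in the mouse links piRNAs to DNA methylation (0.688 ± 0.672 against 9.05 ± 0.451). PIWIL2 is the pig counterpart of the mouse MILI that TDRD1 binds, and PIWIL4 that of the MIWI2 that TDRD9 works with. GTSF1, a zinc finger cofactor of PIWI proteins, rose to 736 ± 75.0 CPM in spermatocytes, against 348 ± 3.86 CPM in spermatogonia.

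In round spermatids against spermatocytes 12 of these 14 genes fell, with a median of -1.84, beside 36.4% of all genes called lower. In round spermatids against spermatogonia all 14 fell, with a median of -1.43, beside 39.7% of all genes. DDX4 was 5.23-fold lower in round spermatids than in spermatocytes (205 ± 28.4 against 1073 ± 79.9 CPM) and MAEL 2.37-fold lower (72.1 ± 2.23 against 171 ± 7.30). HENMT1, which methylates piRNA ends, was 2.07-fold lower (24.8 ± 1.96 against 51.2 ± 3.09 CPM), while FKBP6, a partner chaperone, was 6.15-fold lower (43.6 ± 3.73 against 268 ± 39.0). PIWIL4 was called higher (1.07 ± 0.0713 against 0.574 ± 0.361 CPM, edgeR adjusted p = 0.0486) and SPOCD1 did not pass (edgeR adjusted p = 0.791). Beside the members' falls of 2.51-fold for TDRD3 to 32.6-fold for TDRD6, these falls differed in size from gene to gene within the same libraries.

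**Figure D4:**
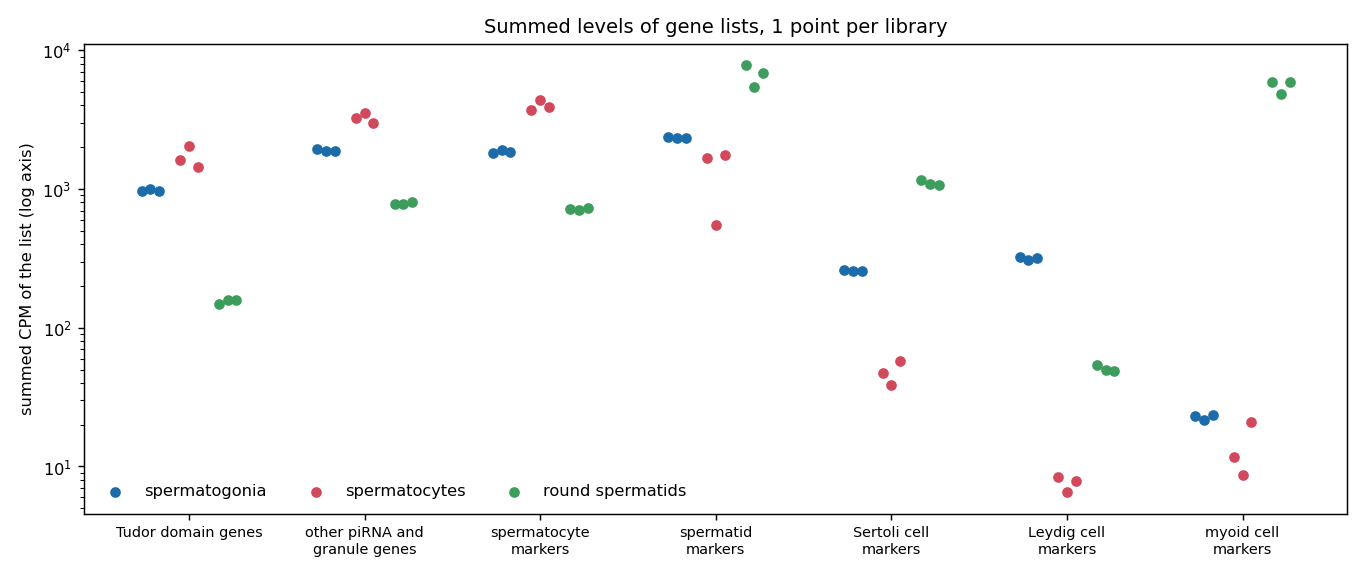
Summed CPM of the Tudor domain genes and of 6 other gene lists on a log axis, with 1 point per library. The Tudor domain sum was 147 to 158 CPM in round spermatids, below all libraries of the other stages, while the sums of spermatid, Sertoli and myoid cell markers were highest there.

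Many markers of other cells, and of spermatids themselves, rose where the members fell in round spermatids. Against spermatocytes, all 8 myoid, all 12 Sertoli and 9 of 11 spermatid markers rose, with medians of 8.78, 5.01 and 1.89 on the log2 scale. So did all 6 endothelial markers (median 3.96), all 7 leukocyte markers tested (3.05), 5 of 7 Leydig cell markers and 8 of 11 spermatogonia markers. Among all genes tested, 42.7% were called higher in that comparison. Of 11 spermatocyte markers 10 fell, beside 36.4% of all genes. ACTA2, the smooth muscle actin, stood at 1089 ± 185 CPM in round spermatids, against 0.446 ± 0.526 CPM in spermatocytes. In spermatocytes against spermatogonia 10 of 12 Sertoli and all 7 Leydig cell markers fell, beside the 6 Tudor domain genes that rose. Among all genes tested, 44.0% fell and 29.3% rose there. The part of these cells in the members' differences was not tested.

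Genes for arginine methylation, as a list of enzymes and partners of PRMT5, were called at shares near those of all genes between spermatocytes and spermatogonia. Of the enzymes alone, PRMT9 rose there, PRMT5, PRMT6 and PRMT7 fell, and the others were not called. PRMT5 stood at 85.6 ± 0.195 CPM in spermatogonia, 68.7 ± 6.86 in spermatocytes and 38.9 ± 5.33 in round spermatids. Of 10 genes found for arginine methylation, 3 rose and 4 fell in spermatocytes against spermatogonia, beside 29.3% and 44.0% of all genes. Their median was -0.17. In round spermatids against spermatocytes 2 rose and 5 fell, with a median of -0.58, beside 42.7% and 36.4% of all genes. In round spermatids against spermatogonia 3 rose and 6 fell, with a median of -1.14, beside 39.5% and 39.7% of all genes. PRMT6 fell by 0.80 and PRMT7 by 0.53 on the log2 scale in spermatocytes against spermatogonia, while CLNS1A, a subunit that brings substrates to PRMT5, rose by 1.23. PRMT9 fell by 2.93 and RIOK1, another PRMT5 adaptor, by 2.03 in round spermatids against spermatocytes, while CARM1 rose by 1.48. WDR77, the fixed partner of PRMT5, was 1.82 lower on the log2 scale in round spermatids than in spermatogonia (32.7 against 115 CPM). PRMT9 was 2.60 lower in that comparison (15.9 against 96.4 CPM), while CLNS1A was 1.08 higher (24.2 against 11.4 CPM).

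Of 5 listed partners of TDRD3, 2 rose and 2 fell in spermatocytes against spermatogonia, and 2 rose and 3 fell in round spermatids against each of the other stages. Among all genes, 29.3% rose and 44.0% fell in spermatocytes against spermatogonia. In round spermatids, 42.7% rose and 36.4% fell against spermatocytes, and 39.5% rose and 39.7% fell against spermatogonia. With 5 genes, the counts are too few to be called like or unlike these shares. TOP3B was lower in spermatocytes (35.7 ± 3.64 CPM) than in spermatogonia (48.8 ± 0.806 CPM) and lower again in round spermatids (19.1 ± 0.801 CPM), with edgeR adjusted p = 0.00327 and 2.09e-05 for each step. FMR1 stood at 11.09 ± 0.466, 21.2 ± 4.85 and 38.8 ± 14.8 CPM over the 3 stages and was called higher at each step (edgeR adjusted p = 0.00993 and 0.0122), although round spermatids 2, at 22.2 CPM, lay below spermatocytes 4, at 26.8 CPM. FXR1, its relative, stood at 318 ± 2.69, 646 ± 26.3 and 256 ± 19.2 CPM and was called higher and then lower (edgeR adjusted p = 7.67e-06 and 4.22e-07). Unlike TDRD3, it was also called lower in round spermatids than in spermatogonia (-0.31, edgeR adjusted p = 0.0119). FXR2 fell by 0.36 and then by 0.84 on the log2 scale, and USP9X, a deubiquitinase that binds TDRD3, was 0.78 higher in round spermatids than in spermatocytes.

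Genes whose Tudor domains serve elsewhere, mostly on chromatin or in RNA splicing, were mixed between spermatocytes and spermatogonia and mostly lower in round spermatids. Of 19 found, 9 rose and 8 fell in spermatocytes against spermatogonia, with a median of 0.07, beside 29.3% and 44.0% of all genes. In round spermatids against spermatocytes 4 rose and 12 fell, with a median of -1.08, beside 42.7% and 36.4% of all genes. The splicing factor gene SMNDC1 rose by 2.64 and the chromatin gene ARID4A by 2.62 on the log2 scale in spermatocytes against spermatogonia, while PHF19, of Polycomb complexes, fell by 2.34. LBR, the lamin B receptor of the nuclear envelope, fell by 3.41 and MTF2, also of Polycomb complexes, by 2.36 in round spermatids against spermatocytes, while PHF19 rose by 4.74. In round spermatids against spermatogonia 4 of the 19 rose and 12 fell, with a median of -0.98, beside 39.5% and 39.7% of all genes. TDRD10 and LBR were lowest at -2.83 and -2.45, and SMNDC1 rose by 2.85.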

How the data were processed

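Libraries from total RNA were made with a kit that keeps strand and read from both ends on an Illumina machine, per the labels' protocols. Sscrofa11.1 and bcl2fastq appear in the submitters' processing notes. How reads were aligned and quantified, and whether by strand, is not given in the sources used here, so that overlapping genes on opposite strands may share reads. The authors deposited estimated counts per gene and TPM, 1 column per library. Headings with the names of the KIT receptor and the pachytene stage were taken as spermatogonia and spermatocytes, with the numbers of the sample titles; 6 of 15 library columns were not used, among them 4 headed by another surface antigen, 1 of which shares a number with a spermatogonia title. Symbols were found for 14749 of 22342 identifiers, and positions come from a RefSeq table of Sscrofa11.1 by symbol.

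Estimated counts were rounded, filtered with filterByExpr, scaled with TMM factors (0.774 to 1.26) and fitted over 9 libraries with edgeR 4.0.16 in R 4.3.3. The procedure was run on simulated counts in which few genes changed, in spermatocytes only, with the same spread for all libraries. That run did not cover shifts as wide as those of these stages or libraries as close as those of spermatogonia. The SE is the log2 fold change divided by the square root of F. CPM use the same factors. Alternatives used limma 3.58.1, DESeq2 1.42.0, other scalings and filters, TPM with pseudocounts of 1 and 0.1, and left-out libraries. Python 3.11.15 with pandas 2.3.3, numpy 2.4.6, scipy 1.17.1 and matplotlib 3.10.9 made tables and plots.

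Members and lists were chosen with earlier results of these data known. Named were all members, any piRNA gene and TDRD3 partner, and, per comparison, up to 2 called genes in the majority direction and 1 in the other from the lists for arginine methylation and other Tudor domains. Also named were stage and cell markers, and the 2 genes most correlated with each member. AMH, NANOS2 and other single markers such as KIT were named after their values were seen.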

Additional observations from a re-analysis of the deposited data

How the results depend on the processing

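Over 21 alternatives, 468 of 504 log2 fold changes of single members kept their direction and side of the threshold; 12 lost a call, 16 gained one and 8 changed sign. All calls in round spermatids against spermatocytes, and all 7 against spermatogonia, held in all 21. The count of members called higher in spermatocytes than in spermatogonia, 6 in the report, was 3 without normalization factors, 3 with spermatogonia libraries summed, 3 on log2(TPM + 1) and 2 on log2(TPM + 0.1). It was 7, with TDRD12, under 8 alternatives: RLE size factors, DESeq2, limma-voom, no filter, without the 50 most abundant genes, only the 2 stages compared, and without spermatocytes replicate 4 or round spermatids replicate 2. The count called lower was 1 (TDRD9) without normalization factors, with limma-voom and on both TPM scales, and 0 to 1 with single libraries left out. In that comparison TDRD12 was -0.15 without normalization factors, -0.24 on log2(TPM + 1) and -0.25 on log2(TPM + 0.1), and RNF17 was -0.089 and -0.091 on the TPM scales. TDRD3 in round spermatids against spermatogonia was 0.015 with RLE size factors, 0.0087 with DESeq2 and 0.076 without round spermatids replicate 2. None of these sign changes was called. The cause was not tested. Over all genes, 4930 were higher in spermatocytes than in spermatogonia, against 2433 and 2424 on the TPM scales and 3229 with spermatogonia libraries summed, and 6639 were higher in round spermatids than in spermatogonia, against 3652 and 3578 on the TPM scales; higher genes there made up 49.87% of calls, and 32.13 and 31.92% on the TPM scales. With the replicate number as a block, 5 members were called higher in spermatocytes, TDRD5 losing its call, and 8 and 7 lower in round spermatids. Deviations of same-numbered libraries from their stage means had r from -0.0483 to 0.0283 over 7 pairs. Most of these pairs held a spermatogonia library, and those libraries were close to each other, so such values cannot tell whether the numbers pair libraries. The main fit has no block because the labels state no pairing.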
